A study of Mus musculus with 24 samples.

Results

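The neuronal immediate early genes are 10 genes whose transcripts were measured in mouse cerebellum: Fos, Fosb, Fosl2 and Junb, which encode AP-1 subunits, Egr1 and Egr2, which encode zinc finger transcription factors, Npas4 and Nr4a1, which encode 2 further transcription factors, Ier2, and the synaptic gene Arc. They were chosen by name, with earlier results of these data known, by taking each array probe whose transcript belongs to one of these genes. The array holds 13 such probes among 56605, and 12 of them passed the detection filter that 38115 probes passed, so each of the 10 genes could be followed. The array carries 22911 gene symbols in all. Each gene is described by its brightest probe, called the lead probe, and the second probes of Fosb, Fosl2 and Junb are described at the end.

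Immediate early genes are transcribed within minutes of a rise in synaptic activity or growth factor signalling, without new protein synthesis, through calcium, cyclic AMP and MAP kinase pathways that act on factors such as CREB and serum response factor already bound at their promoters. Their transcripts decay quickly, so the level in a tissue sample reflects the time shortly before it was collected. In the cerebellum they are induced in granule neurons and other cells by sensory input, movement, handling and injury.

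The samples were RNA of cerebellum collected on postnatal day 28 from C57BL/6 mice, on 24 one-colour Agilent arrays in 12 groups of 2. Mice with a nestin-Cre knockout (KO) of Derlin-1 or of Derlin-2 were set beside floxed controls of the same line. Both Derlins sit in the membrane of the endoplasmic reticulum and help to move misfolded proteins out of it for degradation. Nestin-Cre acts in neural progenitors, so neurons and most glia of the brain share the deletion while microglia and vessels largely do not. Mice received 4-phenylbutyrate (4PBA), a chemical chaperone and histone deacetylase inhibitor, at 200 mg/kg or water as vehicle, by daily intraperitoneal injection from day 14 to day 28. The Derlin-1 line was run as 2 series. In the numbered series the groups were control and KO with vehicle and with 4PBA, and in the lettered series they were control and KO with 4PBA and control and KO arrays for which no vehicle is named, called untreated here. The Derlin-2 line had control and KO groups with vehicle and with 4PBA. Each series lay on a slide of its own, with control arrays in columns 1 and 2, KO arrays in columns 3 and 4, arrays without 4PBA in row 1 and 4PBA arrays in row 2, so position on the slide and group cannot be told apart. Nothing in the labels says whether the arrays of a group came from separate mice, so p-values measure the spread between these arrays, which may be technical.

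Levels are log2 processed intensities minus the array's 75th percentile, so that 0 is the 75th percentile of the array and 1 unit is a doubling. Of the spots, 57.7% to 68.4% were well above background per array. In bulk tissue, fewer cells of a type and less RNA per cell cannot be told apart. Defining markers of granule and Purkinje neurons were present in each group. The mean level of a marker list, here the log2 of the mean scaled intensity of its genes, was 5.45 to 6.48 for granule neurons and 6.43 to 6.97 for Purkinje cells, while the 4 measured forebrain neuron markers, which should be scarce in cerebellum, had mean levels of -3.47 to -2.92. 2 arrays, called doubted here, had levels unlike those of other arrays with the same genotype label. Derl2 was at 2.30 on array 1 of the group labelled Derlin-2 KO vehicle (vehicle KO 1 from here on), against 2.01 and 2.13 in the vehicle controls and 1.08, 0.73 and 0.80 on the other Derlin-2 KO arrays. The mean level of 10 microglial markers was 0.93 on array b of the lettered group labelled Derlin-1 KO 4PBA (4PBA KO b from here on), within the 0.92 to 1.36 of the controls of both lines, while the other Derlin-1 KO arrays were at 1.89 to 2.36. Those markers do not measure the deleted gene, so they raise a doubt about that array and do not test its label. The Derl1 probe overlapped between KO and control arrays of the Derlin-1 line in both series. It was at 1.28 to 1.51 on numbered KO arrays and 1.34 to 1.80 on their controls. In the lettered series it was at 0.68, 1.39, 1.18 and 1.46 on KO arrays, the last of them 4PBA KO b, and at 1.78, 1.40, 1.74 and 1.31 on controls. Whether it lies in the deleted part is not given in the sources used here, so it checks no label. The main differences that use either doubted array are also given without it.

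Promoter sequence was available for 7 of the 10 genes in the RefSeq table of build GRCm38.p6. The 250 bases upstream of the start are shown for the 4 genes whose deviations from the group means correlated most with those of the other members, as described further on. Fosb is among them by that measure alone, and Ier2 did not enter it. Capitals mark the half-site of the cyclic AMP response element, TGACG on either strand, which is the core that CREB recognises.
Fos chr12:85473640-85473889 (+ strand): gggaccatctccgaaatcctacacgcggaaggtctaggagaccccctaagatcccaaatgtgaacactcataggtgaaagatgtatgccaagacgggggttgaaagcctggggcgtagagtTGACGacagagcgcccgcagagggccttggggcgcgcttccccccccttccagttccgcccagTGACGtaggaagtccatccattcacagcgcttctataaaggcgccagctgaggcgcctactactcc
Fosb chr7:19310046-19310295 (- strand): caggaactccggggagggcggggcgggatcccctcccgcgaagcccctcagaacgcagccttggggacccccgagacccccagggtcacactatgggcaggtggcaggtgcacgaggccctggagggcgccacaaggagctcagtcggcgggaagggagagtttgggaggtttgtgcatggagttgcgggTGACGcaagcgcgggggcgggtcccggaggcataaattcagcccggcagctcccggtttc
Npas4 chr19:4989972-4990221 (- strand): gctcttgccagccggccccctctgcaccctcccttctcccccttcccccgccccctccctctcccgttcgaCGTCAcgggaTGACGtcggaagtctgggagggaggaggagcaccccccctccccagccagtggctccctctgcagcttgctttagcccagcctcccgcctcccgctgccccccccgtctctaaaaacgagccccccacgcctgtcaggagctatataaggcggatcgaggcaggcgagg
Nr4a1 chr15:101266596-101266845 (+ strand): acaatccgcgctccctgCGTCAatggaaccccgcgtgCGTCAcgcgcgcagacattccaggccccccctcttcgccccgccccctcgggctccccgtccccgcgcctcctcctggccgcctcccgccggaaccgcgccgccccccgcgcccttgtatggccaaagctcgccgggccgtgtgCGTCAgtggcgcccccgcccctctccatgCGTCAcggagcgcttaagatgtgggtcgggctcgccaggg
The half-site was found 2 times upstream of Fos, 1 time upstream of Fosb, 2 times upstream of Npas4 and 4 times upstream of Nr4a1. The copy nearest the start lay 66 bases upstream in Fos, 60 in Fosb and 40 in Nr4a1, and 169 bases upstream in Npas4. Among the 7 genes with a promoter, 6 held the half-site within 250 bases of at least 1 start, and Fosl2 did not. Of 32851 mouse promoters of the same length, 17.8% held it, 1.55% held the full palindrome TGACGTCA, which was at none of the member starts, and 1.47% held a CArG box, the serum response factor motif, which among the members was upstream of Egr2. These are matches of letters and show no binding.

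The clearest feature of these genes was how much several of them differed between arrays of one group. The pooled standard deviation (SD) within groups was 0.90 log2 units for Npas4 and 0.78 for Fos, each over 12 pairs of arrays, against a median of 0.16 for the 28106 probes above background on every array. Those values stood at percentiles 99.7 and 99.4 of these probes. Nr4a1 (0.51, percentile 95.1), Fosl2 (0.45, percentile 92.8) and Fosb (0.41, percentile 91.2) also stood high. Arc (0.31), Junb (0.30), Ier2 (0.23) and Egr1 (0.21, percentile 66.6) lay nearer to the bulk of probes. The SD of Egr2 was 0.67, but 12 of its 24 array values were not well above background, where scatter is large. Leaving out vehicle KO 1 or 4PBA KO b gave an SD of 0.80 or 0.73 for Fos and of 0.90 or 0.94 for Npas4.

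**Figure D1:**
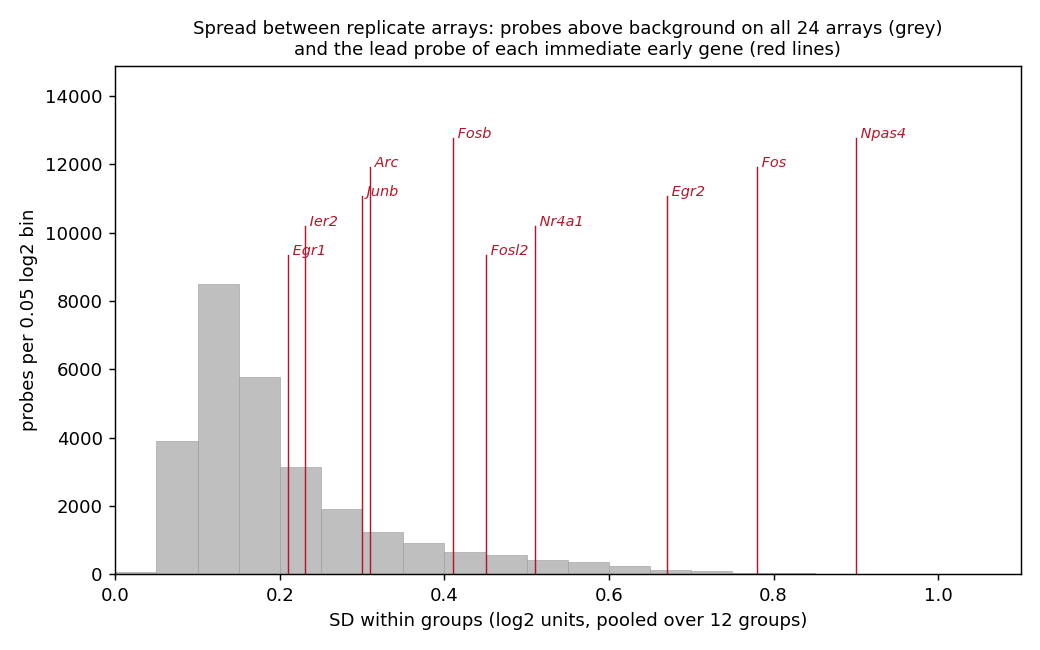
Histogram of the SD within groups, in log2 units pooled over 12 groups, for the 28106 probes above background on all 24 arrays (grey bars, probes per bin), with a red line at the SD of the lead probe of each gene. Npas4 (0.90) and Fos (0.78) lie in the thin right tail while Egr1 (0.21) and Ier2 (0.23) lie close to the grey bulk with its median of 0.16. Egr2 is not itself among the grey probes.

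Npas4, a transcription factor induced by calcium entry in neurons, had the largest gap within a pair. Its level was -1.80 on Derlin-1 KO vehicle array 1 of the numbered series and 0.99 on array 2, a 6.91-fold difference. The controls of that series differed too, at 0.82 and -0.99. 5 of the 12 pairs differed by more than 1 log2 unit, and the smallest gap was 0.06, in the Derlin-2 controls under 4PBA (-0.77 and -0.71). Over all 24 arrays Npas4 ran from -3.25 to 1.25, against a gap of 2.79 in that 1 pair.

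Fos, the founding AP-1 subunit and the usual marker of recent neuronal activity, ranged from -0.30 to 3.70 with a median of 2.07. Its largest gap lay in the same group, at 1.01 and 2.99 on Derlin-1 KO vehicle arrays 1 and 2 of the numbered series (3.93-fold). The untreated KO of the lettered series gave 0.64 and 2.23, the numbered KO under 4PBA 2.71 and 1.01, and the lettered KO under 4PBA 2.94 and 1.30. These 4 groups, all of them labelled Derlin-1 KO, were the ones whose arrays differed by over 1 unit in Fos, and the value 1.30 in the last of them is that of 4PBA KO b, a doubted array. No Derlin-1 control pair differed by more than 0.80 and no Derlin-2 pair by more than 0.51. Whether the spread itself differed between genotypes was not tested. Markers of choroid plexus, a tissue that borders the cerebellum, also differed within pairs. Their mean level was 1.48 and 5.53 on the numbered vehicle KO arrays, low where Fos was low, but 4.43 and -0.24 on the lettered untreated KO arrays, high where Fos was low. It was 5.13 and 5.15 in the numbered KO under 4PBA, where Fos differed by 1.70.

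Nr4a1, an orphan nuclear receptor induced by activity and by stress, ranged from 1.81 to 4.86. Its pairs differed by up to 1.28, in the lettered Derlin-1 KO under 4PBA (4.41 and 3.13), and by as little as 0.05, in the Derlin-2 controls under 4PBA (3.03 and 2.97). Egr1, a zinc finger factor with high basal transcription in many neurons, ranged over 1 log2 unit in all, from 1.55 to 2.55. Arc, whose protein acts at synapses in AMPA receptor endocytosis, ranged over 1.20 units from 0.02 to 1.23, and Ier2 over 1.34 from -0.28 to 1.06. Junb ranged from 0.69 to 2.30, and all 8 arrays of the lettered series lay between 0.69 and 1.74. Fosl2 ranged from -0.73 to 1.17, and both ends came from 1 group, the untreated lettered Derlin-1 KO.

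**Figure D2:**
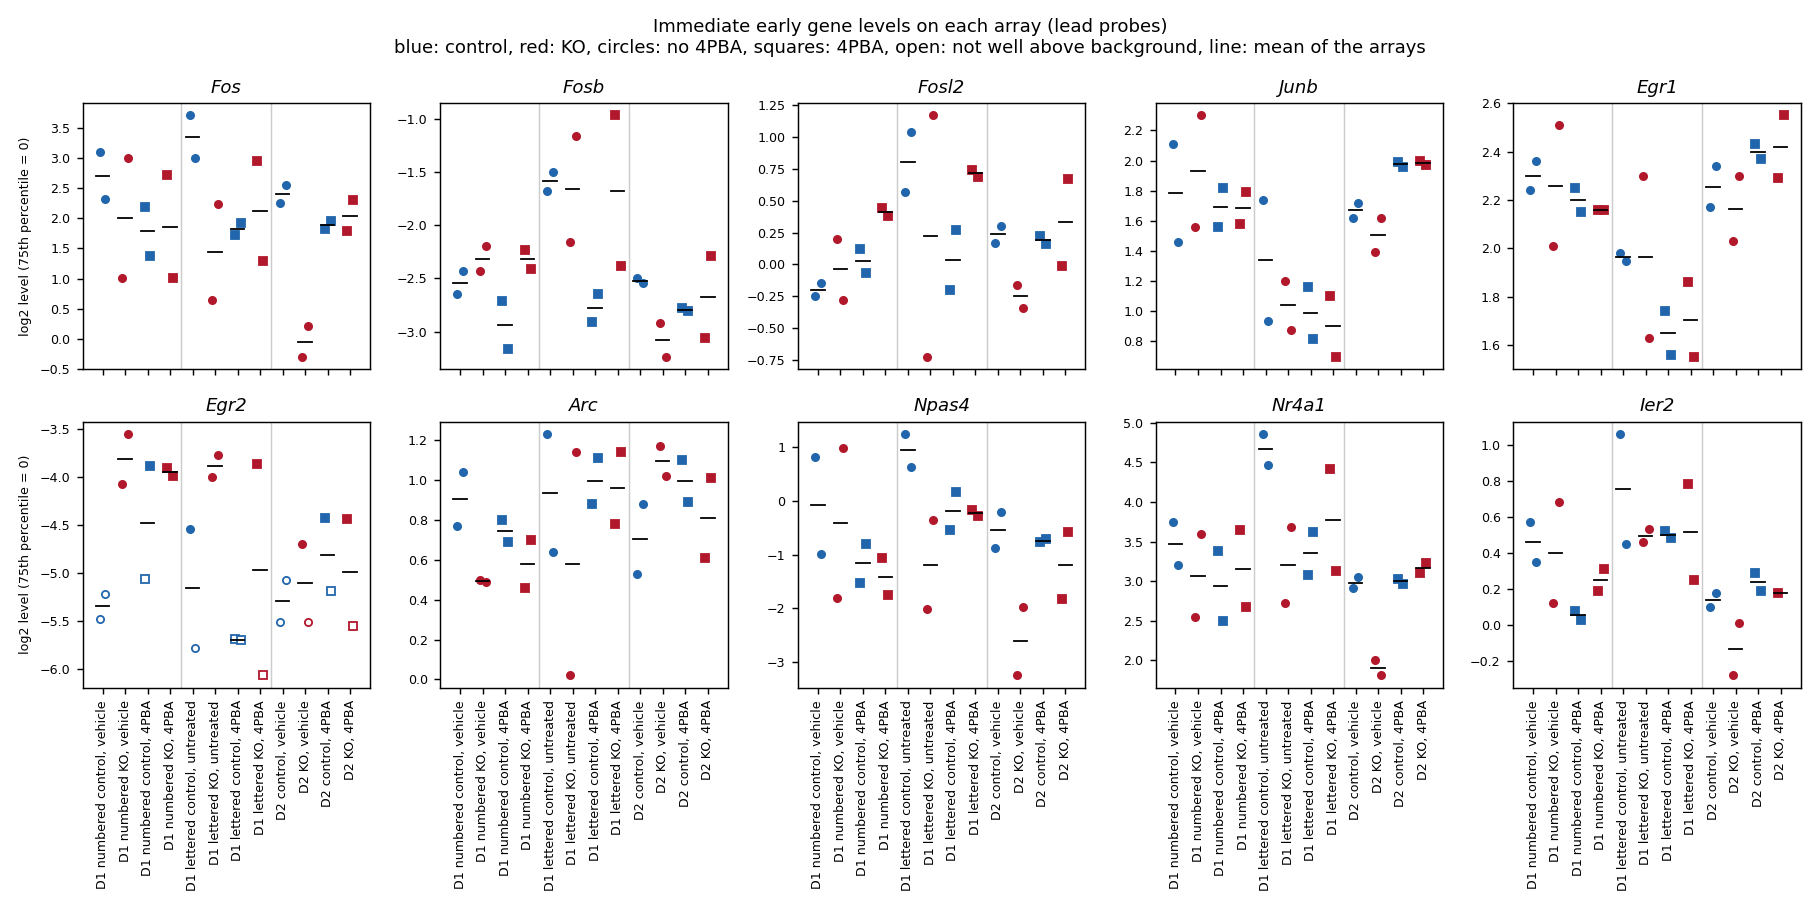
Level of each immediate early gene on all 24 arrays (y axis, log2 with the array's 75th percentile at 0) by group (x axis), with controls in blue, KO in red, circles without 4PBA, squares with 4PBA, open symbols for values not well above background and a line at each group's mean. The arrays of a group lie far apart for Npas4 and Fos and close together for Egr1, and both Derlin-2 KO vehicle arrays are lowest of all for Fos (-0.30 and 0.21) and Nr4a1 (2.01 and 1.81).

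Fos, Npas4 and Nr4a1 tended to be high or low on the same array. In 11 of 12 pairs the array with more Fos also had more Npas4, and in 10 of 12 it had more Nr4a1. Without the pairs that hold vehicle KO 1 and 4PBA KO b, both counts were 9 of 10. Of 36281 probes measured on every array, 0.105% had the same sign as Fos in 11 or more pairs and 1.03% in 10 or more. The agreement with Fos was 8 of 12 for Egr1, 8 of 11 for Ier2, 7 of 12 for Fosb and Fosl2 and 6 of 12 for Junb, Arc and Egr2. Of all probes, 16.5% had the same sign as Fos in 8 or more pairs and 36.2% in 7 or more, so such counts were common. The Npas4 exception was the numbered Derlin-1 controls under 4PBA, where Fos was at 2.18 and 1.38 and Npas4 at -1.53 and -0.80.

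As a second description, each level was expressed as a deviation from its group mean and set against the mean deviation of the other 7 genes that were above background on all arrays, over 24 arrays in 12 pairs. Pearson's r was 0.89 for Fos, 0.82 for Nr4a1, 0.69 for Npas4 and 0.61 for Fosb. It was 0.34 for Arc, 0.31 for Fosl2, 0.27 for Junb and 0.03 for Egr1. The genes of an array share its RNA sample and its scaling, the deviations of a pair are mirror images, and no test is given. 2 arrays stood lowest in the mean of these genes, untreated lettered KO a (-0.45) and numbered KO vehicle 1 (-0.42), each with a partner as far above.

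**Figure D3:**
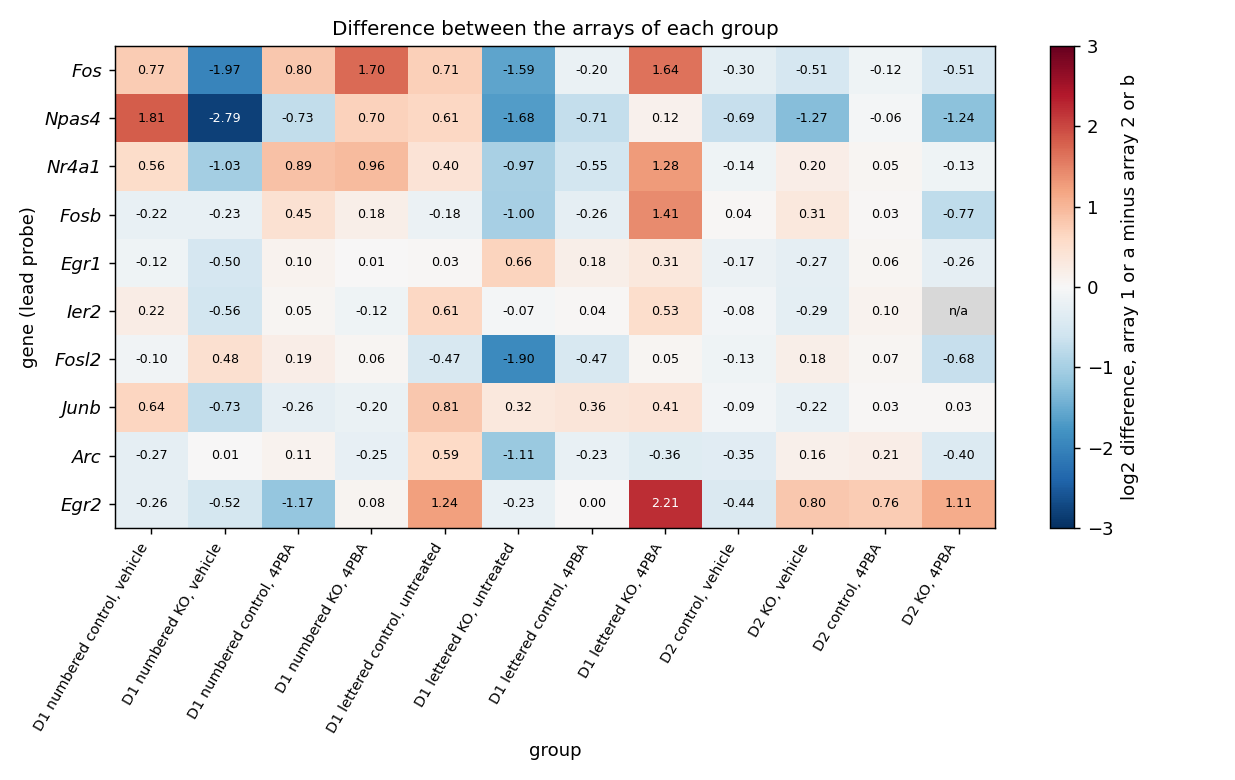
Difference between the arrays of each group (array 1 minus 2, or a minus b, in log2 units, by colour and printed value) for each gene (rows) and group (columns), grey where an array was left out as an outlier. The signs in the rows of Fos and Npas4 match in 11 of 12 columns, with the largest values in the numbered Derlin-1 KO vehicle column (-1.97 and -2.79).

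The genes outside the set with the most similar deviations were sought among 14258 genes above background on all arrays. Sik1, a kinase gene that is itself a CREB target and acts back on CREB coactivators, came first with r = 0.94, and Rgs2, a regulator of G protein signalling that is also activity-induced, came second with r = 0.84. Both were on the list of 40 other immediate early genes. They were followed by Mcph1 (0.82), Pcdh15 (0.80), Gm33464 (0.79), Fmo5 (0.79), Lig4 (0.78), Fam210a (0.78), Ccdc9 (0.78) and Ippk (0.78), none of them on that list. Sik1 had a within-group SD of 0.27 and Rgs2 one of 0.18, well under that of Fos. Over the list, 29 of 34 genes had a positive r, with a median of 0.32, and 14 of 15 genes of the later activity-regulated effectors did, also with a median of 0.32. Over all genes, 8802 of 14258 were positive, with a median of 0.08. The values for upstream factors such as kinases and CREB coactivators were 11 of 21 and 0.01. Oligodendrocyte markers (8 of 8 positive, median 0.33) and microglial markers (9 of 10, median 0.28) moved the same way, and granule neuron markers did not (0 of 9, median -0.14). All r values, of members, genes and lists, include both doubted arrays. In the lettered Derlin-1 KO 4PBA pair, a and b, the members' mean deviation was 0.30 and -0.30. Microglial markers were at 2.13 and 0.93 there, granule neuron markers at 5.45 and 5.88 and oligodendrocyte markers at 5.44 and 5.53. The part of cell composition in this pattern was not tested.

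Against this spread, none of the 12 tested probes passed the test in any of the 8 comparisons between 2 conditions (limma over all probes, Benjamini-Hochberg adjusted p under 0.05). The share of all tested probes that passed was 4.94% for Derlin-1 KO against control without 4PBA, 0.0604% for the same under 4PBA, 0.121% for Derlin-2 KO with vehicle, 0.165% for Derlin-2 KO under 4PBA, 0.0341% for 4PBA in Derlin-1 controls, 0.0525% for 4PBA in Derlin-1 KO, 0.178% for 4PBA in Derlin-2 controls and 0.144% for 4PBA in Derlin-2 KO. With 2 arrays a group, the standard error (SE) of the median probe was 0.14 in a Derlin-1 comparison, which pools both series, and 0.20 in a Derlin-2 comparison. For Fos these errors were 0.51 and 0.72, and for Npas4 0.59 and 0.84. At an unadjusted p under 0.05, counts of members were 3, 1, 3, 0, 3, 0, 0 and 2 of 12 in the same order. The first count includes Egr2, whose probe passed the filter only through Derlin-1 KO groups.

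**Figure D4:**
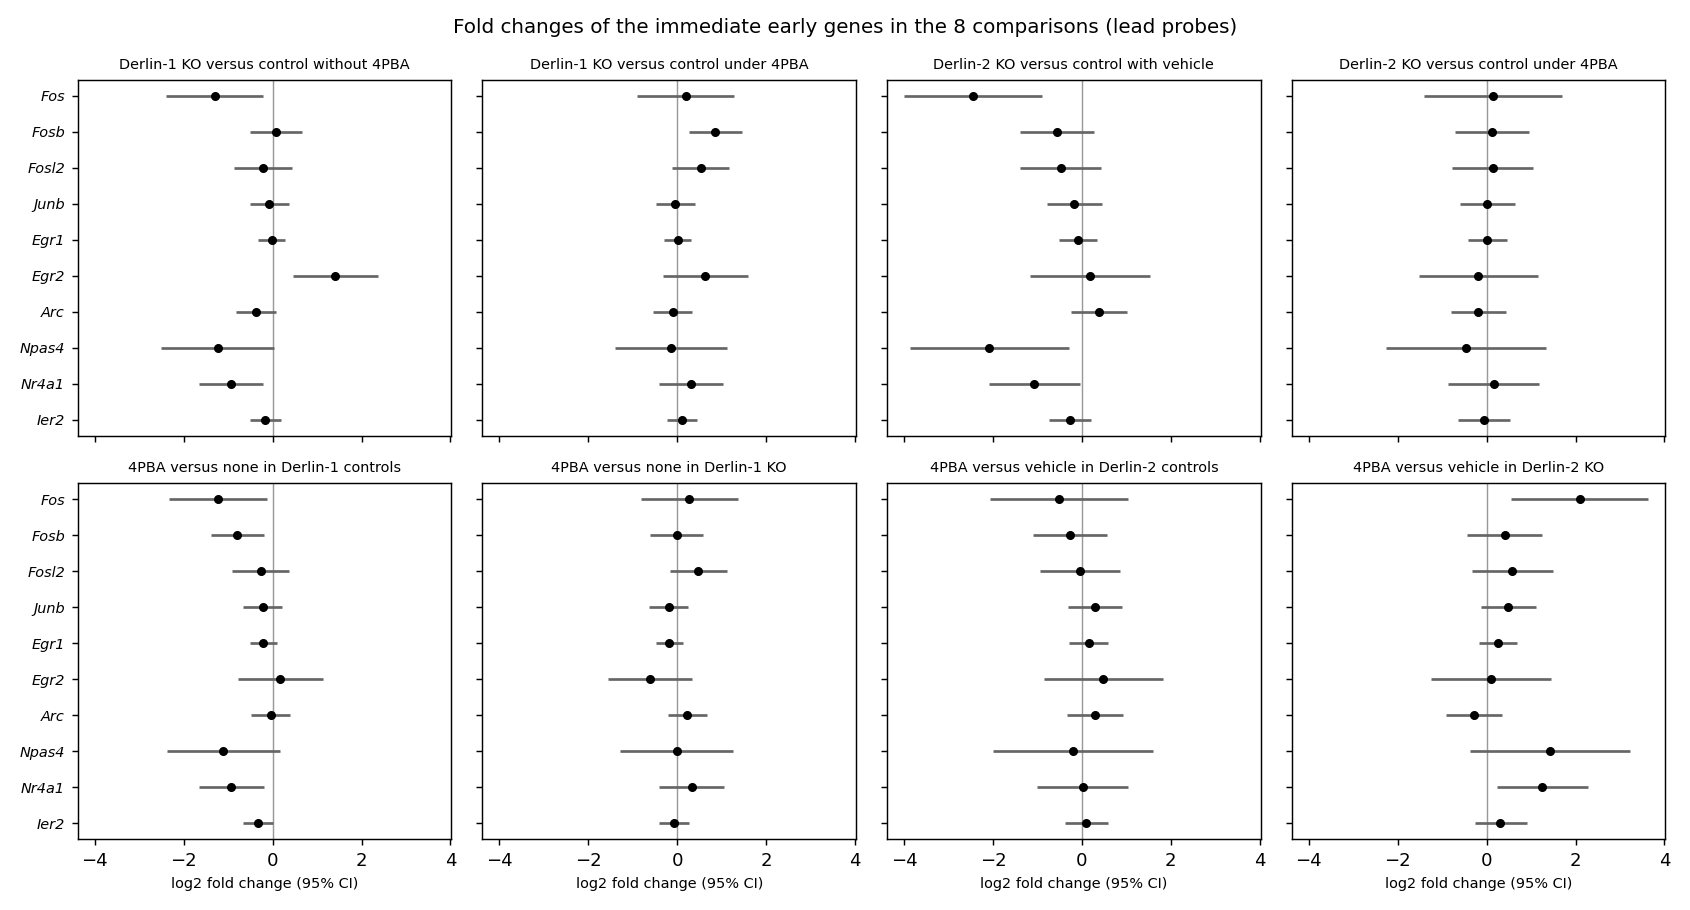
Log2 fold change of each gene's lead probe (x axis, point) with its 95% confidence interval (bar) in the 8 comparisons (panels). The widest bars belong to Npas4 and Fos and the narrowest to Egr1, and the values farthest from 0 are Fos at -2.45 in Derlin-2 KO with vehicle and at 2.09 for 4PBA in Derlin-2 KO. The points of Egr2 rest on 12 of 24 values that were not well above background.

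The Derlin-2 line held the largest differences. With vehicle, Fos was at -0.30 and 0.21 in the KO and at 2.25 and 2.55 in controls. The groups did not overlap, and the difference was -2.45 (SE 0.72, 95% interval -4.00 to -0.90), a 5.46-fold lower level, with an adjusted p of 0.449 by limma. Npas4 was at -3.25 and -1.98 against -0.88 and -0.20, a difference of -2.08 (SE 0.84, adjusted p = 0.661 by limma). Nr4a1 was at 2.01 and 1.81 against 2.91 and 3.05, a difference of -1.07 (SE 0.48, adjusted p = 0.708 by limma). These 3 genes had an unadjusted p under 0.05, as did 6.94% of all probes.

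The other AP-1 subunits and Ier2 lay on the same side with smaller differences. Fosb (-0.56), Fosl2 (-0.48), Ier2 (-0.27) and Junb (-0.17) were each lower on both KO arrays than on both controls. Junb was at 1.39 and 1.62 in the KO against 1.62 and 1.72, so its nearest arrays were apart only beyond the digits given. In all, 7 of the 12 probes lay lower without overlap, against 23.6% of all probes, and 2 lay higher, also against 23.6%. Those 2 were Arc and the second Fosl2 probe, which ran opposite to the lead Fosl2 probe, at -3.62 and -3.72 in the KO against -4.24 and -3.72 in controls (0.31, SE 0.43). The counts use unrounded values, and the nearest arrays of this Fosl2 probe are equal at the digits given. Of the lead probes 8 of 10 were lower, with a median of -0.38 against 0.00 over all probes. Egr1 differed by -0.09 (95% interval -0.52 to 0.35). Arc lay the other way, at 1.17 and 1.02 in the KO and 0.53 and 0.88 in controls, a difference of 0.39 (95% interval -0.24 to 1.02).

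Both arrays of that KO group were low for Fos, although the one labelled vehicle KO 1 had as much Derl2 as a control. Without it, the difference was -2.19 for Fos, -1.44 for Npas4 and -1.17 for Nr4a1, none passed the test, and of the 12 probes only that of Fos kept an unadjusted p under 0.05. The 1 array then left in the group is assumed to vary like those of the other groups. Fosb was then at -0.72, Fosl2 at -0.57 and Arc at 0.31, while Ier2 shrank to -0.13 and Junb to -0.05. Egr1 turned to 0.05. Again 8 of 10 lead probes were lower, with a median of -0.39, and 7 of 12 probes lay lower without overlap, where 39.2% of all probes did. The mean level of 8 choroid plexus markers was 4.50 and 5.54 in the KO and 4.59 and 4.90 in controls, and that of the microglial markers was 1.04 and 1.17 against 1.03 and 1.08, so both overlapped. Purkinje, oligodendrocyte and blood cell markers overlapped as well, and the 4 remaining lists did not. The scarce forebrain neuron markers were lower in the KO, at -3.12 and -3.16 against -3.10 and -2.92. Astrocyte and Bergmann glia markers were lower too, at 6.43 and 6.48 against 6.50 and 6.61 (7 of 8 lower, median -0.25). Granule neuron markers were higher, at 6.39 and 6.48 against 6.32 and 6.36 (6 of 9 higher), as were endothelial and mural markers, at 1.91 and 1.70 against 1.67 and 1.67 (8 of 12 higher). No gene of these lists passed the test, and their part in the differences of the members was not tested.

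Under 4PBA, the Derlin-2 KO and control arrays overlapped for Fos. Fos was at 1.78 and 2.30 in the KO and 1.82 and 1.95 in controls, a difference of 0.15 (95% interval -1.40 to 1.70). None of the 12 probes had an unadjusted p under 0.05, as against 4.98% of all probes. The lead probes split into 4 lower and 6 higher, with a median of 0.02. The choroid plexus markers stood higher in the KO here, at 4.92 and 5.35 against 2.68 and 3.97 in controls.

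Set against the vehicle arrays of the same genotype, the KO arrays under 4PBA were higher for Fos by 2.09 (SE 0.72, adjusted p = 0.429 by limma) and for Nr4a1 by 1.25 (3.10 and 3.23 against 2.01 and 1.81, SE 0.48, adjusted p = 0.474 by limma). Npas4 was higher by 1.42 (SE 0.84), Fosl2 by 0.58 and Junb by 0.48. In this comparison 6 of the 11 probes with a value on each of its arrays lay higher without overlap, against 15.4% of all probes. Of the 12 tested probes 2 had an unadjusted p under 0.05, against 8.65% of all probes. Among the lead probes 9 of 10 were higher, with a median of 0.45 against -0.05 over all probes. It shares the KO vehicle arrays with the comparison of KO and control under vehicle, so the 2 are not independent. Without the array labelled vehicle KO 1, the values were 1.83 for Fos, 0.79 for Npas4 and 1.35 for Nr4a1. In that setting 7 of the 11 lay higher without overlap, where 27.8% of all probes did, and 9 of 10 lead probes were higher with a median of 0.54. Choroid plexus markers were at 4.92 and 5.35 in the KO under 4PBA, within the range of the vehicle KO. The other lists were all lower under 4PBA without overlap: Purkinje, granule neuron, astrocyte and Bergmann glia, oligodendrocyte, microglial, endothelial and mural, blood cell and forebrain neuron markers. Purkinje markers were at 6.47 and 6.59 against 6.77 and 6.97 (10 of 10 lower). Endothelial and mural markers were at 1.49 and 1.55 against 1.91 and 1.70 (12 of 12 lower), granule neuron markers at 6.19 and 6.27 against 6.39 and 6.48 (8 of 9 lower), microglial markers at 0.82 and 0.86 against 1.04 and 1.17 (7 of 10 lower), and blood cell markers at 6.21 and 5.90 against 6.57 and 6.72 (5 of 5 lower). The part of these cells in the Fos and Nr4a1 differences was not tested. In Derlin-2 controls, 4PBA and vehicle differed by -0.51 for Fos (SE 0.72) and 0.02 for Nr4a1 (SE 0.48), and no member had an unadjusted p under 0.05, as against 6.98% of all probes.

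The direct test of whether the KO difference changed with 4PBA gave 2.60 for Fos in the Derlin-2 line (SE 1.02, 95% interval 0.41 to 4.79, unadjusted p = 0.0233, adjusted p = 0.95 by limma). It gave 1.23 for Nr4a1 (SE 0.67) and 1.62 for Npas4 (SE 1.18), each with an adjusted p of 1 by limma. Without the array labelled vehicle KO 1 the values were 2.35, 1.33 and 0.98. No member passed with or without it.

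In the Derlin-1 line without 4PBA, Egr2 was the gene nearest to the threshold. Egr2 encodes a zinc finger factor known for its roles in hindbrain patterning, myelination and activated immune cells. Its level was -4.07 and -3.55 in the numbered KO against -5.48 and -5.22 in controls, and -4.00 and -3.77 in the lettered KO against -4.54 and -5.78. The KO arrays lay above the controls in both series, as did 9.30% of all probes, and 1 of the 12 members did. The 4 KO arrays were well above background and 3 of the 4 control arrays were not, and the groups in which Egr2 was above background on both arrays, through which its probe passed the filter, were all Derlin-1 KO groups. A probe kept in that way had to differ, so its place among the 12 is a description. In the numbered series both controls gave only a bound, and the level was at least 2.71-fold higher in the KO (measured means -3.81 and -5.35). In the lettered series 1 of the 2 controls was above background. The fit on the measured values gave 1.41 (SE 0.44, adjusted p = 0.0845 by limma), which takes the dim control values as they stand. Since the probe was kept through KO groups, its p-value is no test of the KO difference. The size depended on the background correction and was 0.39 with normexp. Either lettered KO 4PBA array could be left out without a change in the difference of 1.41. They are not part of this comparison but enter the shared estimate of spread, so only the spread and the call changed. Microglial markers moved beside it: 10 of 10 were higher in Derlin-1 KO without 4PBA, with a median of 1.43, and 8 of them passed the test, where 6.6% of all genes did. Their mean level was 2.12 to 2.36 in the KO and 0.99 to 1.36 in controls. Choroid plexus markers moved too, lower for 8 of 8 with a median of -0.67. The part of these cells in the Egr2 difference was not tested.

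Fos and Nr4a1 lay lower in the same comparison. Fos was at 1.01 and 2.99 in the numbered KO against 3.09 and 2.31 in controls, and at 0.64 and 2.23 in the lettered KO against 3.70 and 2.99. The groups overlapped in the numbered series and not in the lettered one. The pooled difference was -1.30 (SE 0.51, adjusted p = 0.164 by limma), with -0.70 for numbered and -1.91 for lettered arrays. Nr4a1 differed by -0.93 (SE 0.34, adjusted p = 0.132 by limma), with -0.40 and -1.46 by series, from 2.55 and 3.59 against 3.75 and 3.20 and from 2.72 and 3.69 against 4.86 and 4.47. Npas4 differed by -1.23 (SE 0.59, adjusted p = 0.268 by limma). Fos and Nr4a1 had an unadjusted p under 0.05, where 20.2% of all probes had one. Egr2 had one too, but its probe was kept through Derlin-1 KO groups, so it is not set beside that share. The test of whether the series differed gave -1.21 for Fos (SE 1.02) and -1.06 for Nr4a1 (SE 0.67), both with an adjusted p of 0.968 by limma.

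Arc and Fosl2 in this comparison rested on 1 array. Arc was at 0.50 and 0.49 in the numbered KO and at 0.02 and 1.14 in the lettered KO, against 0.77, 1.04, 1.23 and 0.64 in controls, a difference of -0.38 (SE 0.21, adjusted p = 0.338 by limma). Fosl2 was at -0.73 and 1.17 in the lettered KO and differed by -0.22 (SE 0.30). Without lettered KO untreated b, which had 1.14 for Arc and 1.17 for Fosl2, Arc fell by 0.66 (SE 0.17, adjusted p = 0.0302 by limma) and Fosl2 fell by 0.69 (SE 0.18, adjusted p = 0.0353 by limma). Without the other array of that group, untreated a, the Fosl2 difference turned to 0.26. Choroid plexus markers were at -0.24 on untreated b, the lowest of all 24 arrays, and at 4.43 on untreated a, and their part in this was not tested. Egr1 (-0.02, 95% interval -0.33 to 0.29), Junb (-0.08) and Fosb (0.08) were near 0.

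Derlin-1 KO under 4PBA differed from control most in Fosb, an AP-1 subunit whose splice form deltaFosB accumulates after repeated stimulation. Fosb was at -2.23 and -2.41 in the numbered KO against -2.71 and -3.16 in controls, and at -0.97 and -2.38 in the lettered KO against -2.91 and -2.65. The KO arrays lay higher in both series, as did those of Fosl2, which makes 2 of the 12 probes against 2.19% of all probes. The Fosb difference was 0.86 (SE 0.28, 95% interval 0.27 to 1.45, unadjusted p = 0.00761, adjusted p = 0.322 by limma), and Fosb was the 1 member with an unadjusted p under 0.05, where 9.89% of all probes had one. The value -2.38 came from the array labelled 4PBA KO b. Without it, Fosb was higher by 1.21 (SE 0.23, adjusted p = 0.0148 by limma) and passed the test, and without the other lettered KO array under 4PBA it was 0.51. With normexp it was 0.54. Microglial markers were higher in the same comparison for 9 of 10 genes, with a median of 0.87, though none passed the test. Their mean level was 2.12, 1.89 and 2.13 on the KO arrays other than 4PBA KO b and at most 1.32 in controls. Oligodendrocyte markers were lower for 8 of 8 (median -0.27) and granule neuron markers for 8 of 9 (median -0.22), while choroid plexus markers were higher for 7 of 8 (median 0.45) and blood cell markers for 5 of 5 (median 0.48). The part of these cells in the Fosb difference was not tested. Fos (0.19, SE 0.51), Nr4a1 (0.32, SE 0.34) and Npas4 (-0.14, SE 0.59) had overlapping groups. Without 4PBA KO b these values were 0.60, 0.64 and -0.11, and 8 of 10 lead probes were higher with a median of 0.39, where 7 had been with a median of 0.15. For Egr2, 3 of the 4 controls were not well above background. In the lettered series neither control was, at -5.69 and -5.70. The KO arrays there were at -3.86, well above background, and at -6.07 on 4PBA KO b, which was not and lay below both controls. No bound is therefore given for that series, and Egr2 did not pass.

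In Derlin-1 controls, 4PBA went with lower levels of several members. No vehicle is named for the lettered arrays without 4PBA, so injection and 4PBA cannot be told apart there, in controls or in KO. Fos was at 2.18 and 1.38 with 4PBA against 3.09 and 2.31 with vehicle, and at 1.72 and 1.92 against 3.70 and 2.99 in the lettered series. The groups did not overlap in either series, and the difference was -1.22 (SE 0.51, unadjusted p = 0.0317, adjusted p = 1 by limma). Fosb (-0.79, SE 0.28) likewise did not overlap, and Nr4a1 (-0.93, SE 0.34) did. The gaps were wider in the lettered series. Fosb had means of -2.94 against -2.54 in the numbered series and -2.78 against -1.59 in the lettered one. Nr4a1 had means of 2.94 against 3.47 and of 3.35 against 4.67. Fos, Fosb and Nr4a1 had an unadjusted p under 0.05, as did 2.28% of all probes, and 2 of the 12 lay lower without overlap, as did 1.23% of all probes. Of the lead probes 9 of 10 were lower, with a median of -0.30 against 0.00 over all probes, and none passed the adjusted test. In the same comparison 10 of 10 Purkinje, 11 of 12 endothelial and mural and 7 of 9 granule neuron markers were lower, with medians of -0.05, -0.11 and -0.09, and 8 of 8 choroid plexus markers were higher, with a median of 0.14. None of these markers passed, and their part was not tested. These arrays without 4PBA are the same controls to which the Derlin-1 KO was compared. In Derlin-1 KO the matching differences were 0.27 for Fos (SE 0.51), -0.01 for Fosb (SE 0.28) and 0.33 for Nr4a1 (SE 0.34), with no unadjusted p under 0.05 among the members and 5.43% among all probes. The Fos value turned negative, to between -0.22 and -0.12, when any of 4 single Derlin-1 KO arrays was left out. The direct test of KO by 4PBA gave 1.25 for Nr4a1 (SE 0.48, unadjusted p = 0.02) and 1.49 for Fos (SE 0.72, unadjusted p = 0.0578), each with an adjusted p of 1 by limma. Without the array labelled 4PBA KO b, 4PBA against none in the KO was 0.68 for Fos, 0.34 for Fosb and 0.64 for Nr4a1. The direct test was then 1.57 for Nr4a1 (unadjusted p = 0.00418), 1.13 for Fosb (unadjusted p = 0.00314) and 1.90 for Fos (unadjusted p = 0.0202), again with an adjusted p of 1 by limma.

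The KO differences of the 2 lines without 4PBA were also compared with each other. Derlin-1 minus Derlin-2 was 1.14 for Fos (95% interval -0.76 to 3.04), 0.14 for Nr4a1 (-1.11 to 1.39) and -0.77 for Arc (-1.54 to 0.00), and no member passed. Without vehicle KO 1 these values were 0.89, 0.24 and -0.69. Egr2 was not well above background in the vehicle controls of the Derlin-2 line or the numbered Derlin-1 line, so no difference between the lines is given for it.

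Other genes of the response did pass, from lists drawn up around the pathway. Among 39 measured genes of the other immediate early list, 5 changed in Derlin-1 KO without 4PBA, where 6.60% of all genes did. Jun, the main partner of Fos in AP-1, fell by 0.55 (SE 0.09, adjusted p = 0.00576 by limma), from 3.94 and 3.84 to 3.37 and 3.30 among numbered arrays and from 3.68 and 3.43 to 2.98 and 3.02 among lettered ones, without overlap. Dusp1, a phosphatase that switches off MAP kinases, fell by 1.35 (SE 0.34, adjusted p = 0.0382 by limma), and Btg2, an antiproliferative gene, fell by 0.53 (SE 0.13), with -0.33 for numbered and -0.74 for lettered arrays. Atf3, a stress-induced factor of the ATF family, rose by 2.25 (SE 0.45, adjusted p = 0.0141 by limma), from -3.12 and -2.91 to -0.63 and -0.80 and from -2.03 and -2.60 to -0.17 and -0.07. Klf10 rose by 0.56 (SE 0.13). The list as a whole was not shifted, with 18 higher, 21 lower and a median of -0.07 against -0.01 over all genes. The numbered Dusp1 arrays overlapped (1.85 and 3.59 in the KO, 4.14 and 3.04 in controls), and its difference was -0.87 in that series against -1.83 in the lettered one.

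Later activity-regulated effectors and upstream factors also held called genes in that comparison, 2 of 18 and 3 of 21, beside the 6.60% of all genes. Of the effectors, Vgf, a secreted neuropeptide precursor, rose by 0.67 (SE 0.16) and Timp1, a metalloproteinase inhibitor that reactive glia also make, rose by 0.98 (SE 0.16). Of the upstream factors, Camkk2, a calcium-dependent kinase, fell by 0.70 (SE 0.12), Rps6ka5, a kinase of CREB and histone H3, fell by 0.51 (SE 0.10, with -0.25 for numbered and -0.77 for lettered arrays), and Crtc1, a CREB coactivator, fell by 0.25 (SE 0.07). Over 34 alternative settings the call held in 8 for Crtc1, in 22 for Vgf and Dusp1, in 24 for Klf10, in 27 for Btg2 and in 31 or more for Jun, Atf3, Timp1, Camkk2 and Rps6ka5. Among 9 granule neuron markers 8 were lower, with a median of -0.31, and of these Gabra6 fell by 0.76 and Neurod1 fell by 0.68. The 8 astrocyte and Bergmann glia markers split into 4 higher and 4 lower, with a median of 0.02, and of these 1 passed, Gfap, which rose by 1.24. The part of cell composition in these changes was not tested.

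In the Derlin-2 line, Apold1, an early response gene of endothelial cells and neurons, was the gene of these lists that passed. It was at -3.25 and -3.31 in the KO with vehicle, against -1.68 and -1.78 in controls and -1.74 and -1.71 in the KO under 4PBA. It fell by 1.55 (SE 0.26, adjusted p = 0.0377 by limma) in the KO with vehicle and was higher by 1.55 (SE 0.26, adjusted p = 0.0354 by limma) with 4PBA in the KO. The 2 comparisons share the KO vehicle arrays. Without the array labelled vehicle KO 1 the differences were -1.58 and 1.59, with adjusted p of 0.0731 and 0.0763 by limma. The call held in 10 and 11 of 32 alternative settings, with adjusted p from 0.00312 to 0.193 and from 0.00305 to 0.148 by limma, and the difference shrank to -1 and 0.99 with normexp. The call was lost when 1 array of several other groups was left out, since the spread is shared. The other immediate early list lay lower in 27 of 39 genes in the KO with vehicle, with a median of -0.27 against 0.00 over all genes, and higher in 27 of 39 with 4PBA in the KO, with a median of 0.24 against -0.09. Both counts include vehicle KO 1 and were not made without it. The list's mean level was 1.91 on that array and 1.95 on the other vehicle KO array. It was 2.31 and 2.39 in vehicle controls and 2.08 and 2.20 in the KO under 4PBA.

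**Figure D5:**
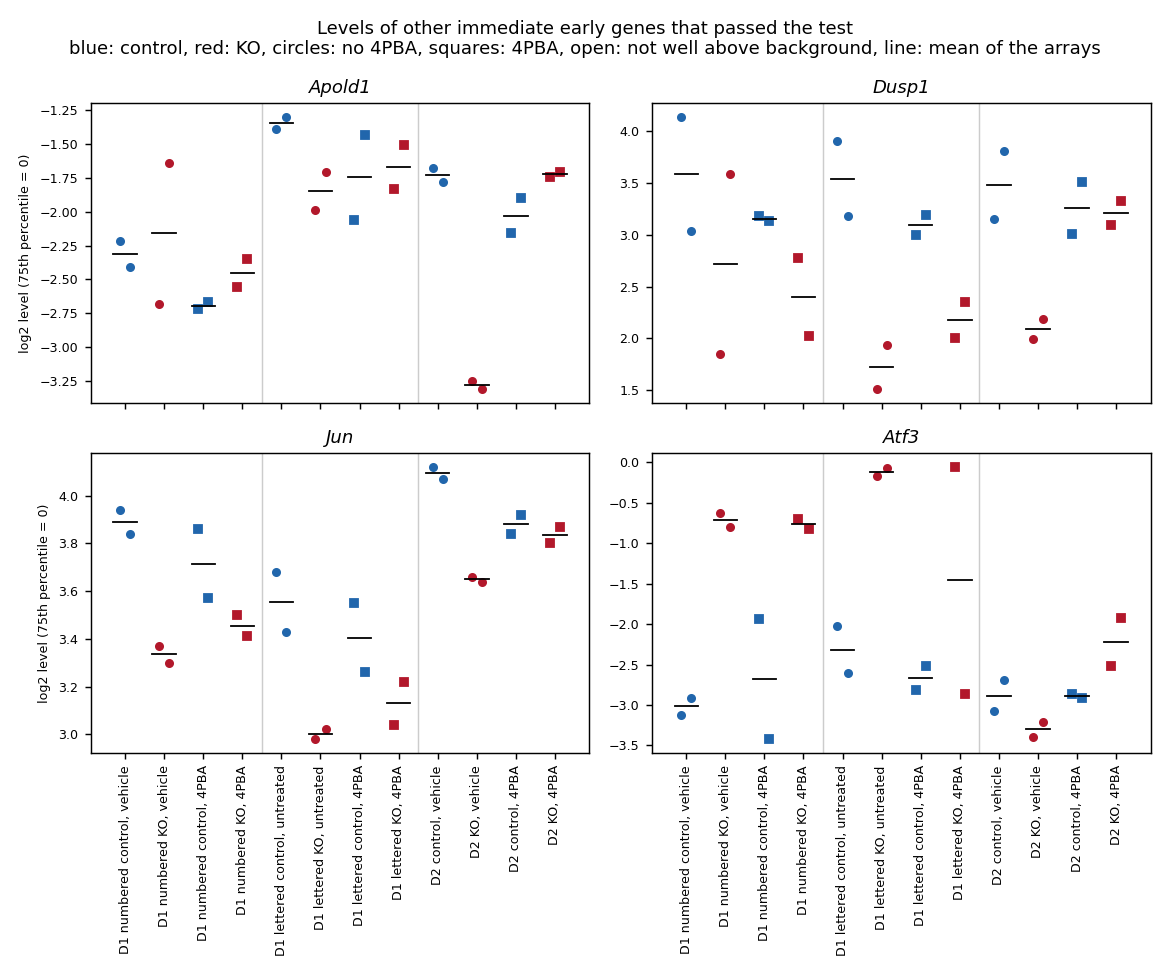
Levels of 4 other immediate early genes that passed the test, on all 24 arrays (y axis, log2 with the array's 75th percentile at 0) by group (x axis), marked as in the plot of the members' levels. Both Derlin-2 KO vehicle arrays are lowest for Apold1 (-3.25 and -3.31), and Atf3 is near 0 or at -0.63 to -0.82 on Derlin-1 KO arrays except the one labelled 4PBA b, at -2.86.

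The second probes of 3 genes gave no call either. The other Fosb probe was never well above background and was not tested. The other Junb probe was above background on 6 arrays, all of the lettered series, and the other Fosl2 probe on 13, none of them lettered. Ier2 was left out on Derlin-2 KO 4PBA array 2, where the scanner software marked its spot as an outlier, so its values there rest on 1 array.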

How the data were processed

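Cerebellar RNA was hybridised to 24 one-colour Agilent arrays, and per the labels and file headers the authors scanned them with Agilent Feature Extraction 10.7.1.1. The deposited intensity per spot (processed signal) was background-subtracted by that software, per the file headers. Here, control and outlier spots were left out, spots of a probe averaged, and log2 of the intensity taken minus the 75th percentile of its array. A probe was kept if it stood well above background on all arrays of some group. One limma 3.58.1 fit (R 4.3.3) with 12 group means, 12 residual and 1.94 prior degrees of freedom gave all comparisons, two-sided, with Benjamini-Hochberg adjustment over all kept probes and 0.05 as threshold. Derlin-1 comparisons average the within-series differences. The fit was tested on simulated data. Transcript accessions named the member probes, and the genes and lists were chosen with earlier results of these data known. Named genes are the members, list genes that passed in any of the 8 comparisons and the 10 most alike, with Derl1 and Derl2 as label checks. Alternatives were quantile and median scaling, normexp (offset 50) on median signals since the files hold no mean signal, other filters, 1 probe per gene, a replicate block, a variance trend, each series alone and each array left out.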

Additional observations from a re-analysis of the deposited data

How the results depend on the processing

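Over 34 alternative settings, 381 of 388 counts of members that passed equalled those of the first analysis, which were 0. With no filter on dim probes, 1 member passed for 4PBA in Derlin-2 controls and 1 for 4PBA in Derlin-2 KO, in each case the Fosb probe that was above background on no array. Leaving out each array in turn gave 0 to 2 members for Derlin-1 KO without 4PBA (Egr2, or Arc and Fosl2), 0 to 1 for Derlin-1 KO under 4PBA (Fosb) and 0 to 1 for 4PBA in Derlin-1 KO (Fosl2, higher by 0.95 without lettered KO untreated b). The 12 member differences with an unadjusted p under 0.05 and the 23 differences of pathway and marker list genes that passed kept their direction in all 1169 checks, and 147 of these lost the call while 3 gained it. Leaving out an array that a comparison does not use cannot change its difference, so many of these checks could not have turned the direction. Over all lead probes and the 8 comparisons, 74 of 2534 checks turned the direction, the largest of them a difference of 0.47, and many of the 2534 were likewise fixed. Without vehicle KO 1, 2 of 80 turned (Egr1 and Egr2 in Derlin-2 KO with vehicle, from -0.09 to 0.05 and from 0.19 to -0.21), and without 4PBA KO b, 4 of 80, none over 0.07 in size. Most of each 80 belong to comparisons that do not use the array and could not turn. The cause was not tested, apart from each series alone and each left-out array, where fewer arrays enter. With the replicate block, 0 members passed in any comparison, and Dusp1 (adjusted p = 0.0577 by limma) and Crtc1 (adjusted p = 0.0579 by limma) lost their calls. The numbers gave no pairing common to all slides: on the 3 slides, same-numbered deviations correlated at over 0.1 in 3, 1 and 4 of 6 pairs of groups. The median r was 0.03, 0.00 and 0.16 and the highest 0.36, 0.21 and 0.65, the last of each from the lettered series. Under median scaling the median of all probes shifted to -0.25 for 4PBA in Derlin-2 KO and to -0.15 in Derlin-2 controls, and over the scalings and normexp 12 of 240 member differences changed sign, none over 0.19 in size. With normexp the difference of Egr2 in Derlin-1 KO without 4PBA was 0.39 in place of 1.41 and its SD fell to 0.21, while that of Fos was 0.75 to 0.80 and of Npas4 0.75 to 0.90 over the scalings. The design limits what can pass: 2 arrays a group, with Fos and Npas4 differing by up to 1.97 and 2.79 within a group.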
